A study of Homo sapiens with 6 samples.

Results

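HOX genes encode homeodomain transcription factors that lie side by side in 4 clusters, HOXA on chromosome 7, HOXB on chromosome 17, HOXC on chromosome 12 and HOXD on chromosome 2. The genes described here are those measured by an array feature that GEO's platform annotation pairs with a single gene symbol, where that symbol is HOXA, HOXB, HOXC or HOXD followed by digits only. This rule found 23 genes of 39 HOX genes in the RefSeq table, among 16704 genes measured in the same way. The 23 are 1 of 11 HOXA genes, 9 of 10 HOXB genes, 5 of 9 HOXC genes and 8 of 9 HOXD genes. None of the 23 had over 1 such feature, and the other 16 HOX genes were not analysed here.

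Within a cluster, genes of low paralog number are active early and toward the head of the embryo, and genes of high number later and toward the tail. In adult epithelia part of this pattern persists as a positional code, kept open by trithorax (MLL) complexes and kept shut by Polycomb complexes. HOX promoters are rich in CpG dinucleotides and are frequent sites of DNA hypermethylation in tumours, and HOXB13, at the tail end of its cluster, is a lineage factor of the prostate that works with the androgen receptor.

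The samples were clones of LNCaP, an androgen-responsive human prostate cancer line. In 3 of them a short hairpin RNA against MBD2, a reader of methylated CpG, had been stably introduced in a neomycin-selected vector, and 3 control clones carried a scrambled hairpin in the same way. Cytoplasmic RNA of each clone was hybridised to 1 Affymetrix human Gene ST array, so that n = 3 in each group and the spread within a group is the spread between separately established clones. Values are log2 expression values made by the authors with RMA, and log2 fold changes are MBD2 knockdown minus scrambled control.

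MBD2 itself stood at 7.68, 7.84 and 7.81 in the knockdown clones, against 8.73, 9.24 and 9.20 in the control clones. All 3 knockdown values lay below all 3 control values, with a log2 fold change of -1.28 (SE 0.14, adjusted p = 0.111 in limma's moderated test over all genes). No gene on the array reached an adjusted p under 0.05, the threshold used throughout. Values spread less on the array of knockdown clone 1, whose SD across genes was 2.00 where the other 5 arrays had 2.05 to 2.07. Luminal prostate markers were bright, with a mean log2 value over 8 measured of 12 listed genes of 9.46 to 9.78 in the knockdown clones and 9.39 to 9.78 in the control clones. All 5 measured haematopoietic markers were dim, and so were 4 of the 8 stromal markers, where dim means a mean value under the lower quartile of all gene means (4.73). The mean of the 4 measured basal markers was 5.01 to 5.05 in the knockdown clones and 4.78 to 4.90 in the control clones. The 2 dim ones, KRT15 and KRT5, had log2 fold changes of 0.34 (adjusted p = 0.326 in limma) and 0.17. KRT14 had 0.18 and ITGB4 -3.9e-05. The part of this shift in the basal mean in the results below was not tested. In such bulk samples fewer transcribing cells and less RNA per cell cannot be told apart. Among luminal markers KRT18 had a log2 fold change of -0.17 and KLK3 0.71 (adjusted p = 0.762 in limma), among stromal markers COL1A1 had 0.24, PDGFRA 0.12 and ACTA2 -0.29, and among haematopoietic markers HBB had 0.18 and CD14 -0.13. Means were higher in the knockdown clones in 4 of 8 luminal, 3 of 4 basal, 5 of 8 stromal and 2 of 5 haematopoietic markers, with median log2 fold changes of 0.04, 0.18, 0.01 and -0.005 in that order.

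No HOX gene passed the threshold. By limma's test 0 of 23 had an adjusted p under 0.05, as did 0% of all 16704 genes. At an unadjusted p under 0.05 HOXC8 and HOXA2 were higher in the knockdown clones, where 3.93% of all genes were, and HOXB9 was lower, where 5.45% of all genes were. Together these are 3 of 23 genes, against a background of 9.39% in either direction, a share too near the background to single out the HOX genes. The smallest adjusted p among HOX genes was 0.359.

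The differences were small in every HOX gene. The fitted 95% interval lay within 1 log2 unit of 0, that is within a 2-fold change, in 23 of 23 genes. The lowest bound was -0.56, for HOXB13, and the highest was 0.67, for HOXC8. In 17 genes the log2 fold change was under 0.15 in size, with adjusted p between 0.73 and 0.994 in limma. These intervals hold for each gene alone, take the spread of 3 clones per group as given, and apply to RMA values, which compress differences between dim signals. With 3 arrays against 3 an exact permutation test of a single gene cannot give a p below 0.1.

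**Figure D1:**
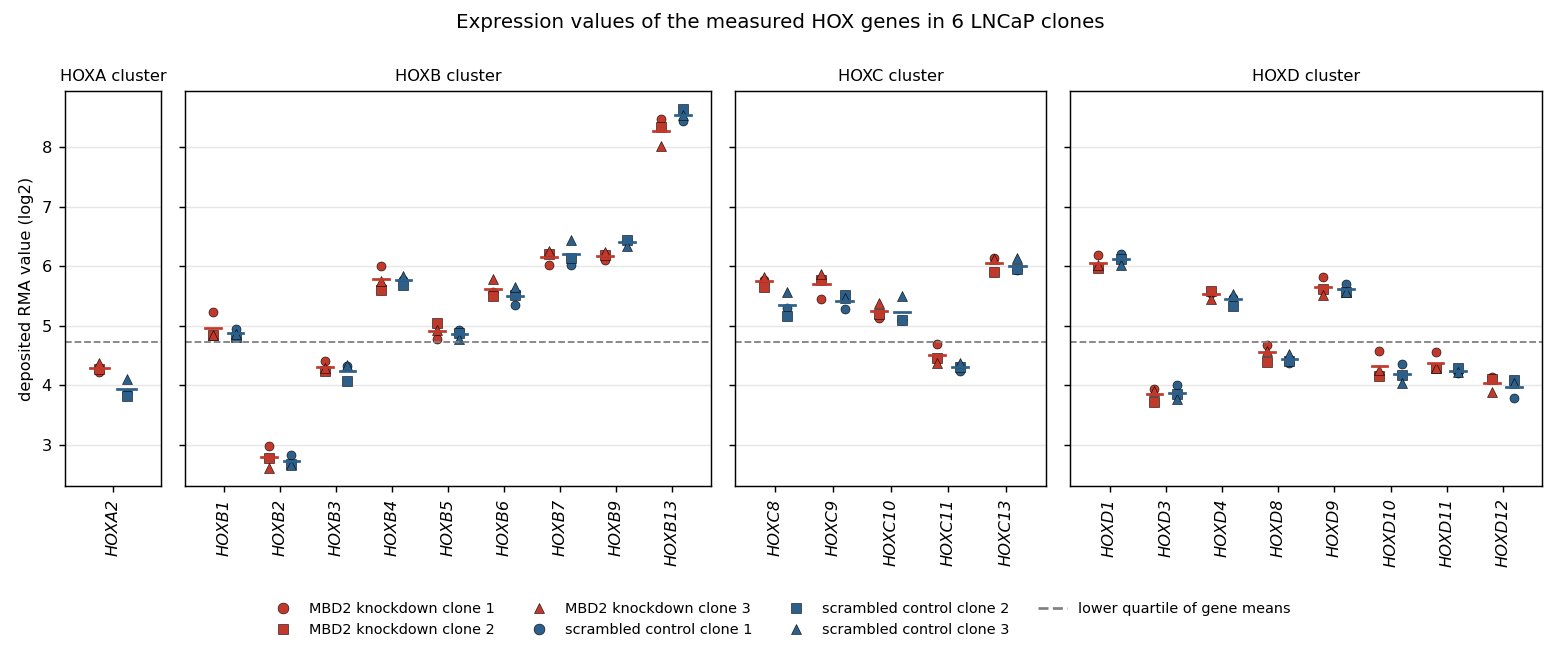
Deposited log2 values of the 23 measured HOX genes by cluster and paralog number, with the 3 MBD2 knockdown clones in red on the left and the 3 scrambled control clones in blue on the right of each gene. Points are single arrays, short bars are group means and the dashed line is the lower quartile of all gene means (4.73). The 2 groups overlap in 19 of 23 genes.

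Signals were low in most HOX genes. The mean over all 6 arrays was dim in 9 of the 23, and was under the median of all gene means in 22 of them. HOXB13 was the exception, with a mean in the upper quartile. Since features differ in how strongly they bind their target, the values are not amounts of RNA that can be set against each other, and the table gives no call of whether a gene was detected.

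The HOXC cluster held the gene with the smallest p. HOXC8, which in mouse patterns the thoracic skeleton and motor neurons at the level of the forelimb, had log2 values of 5.77, 5.65 and 5.81 in knockdown clones 1, 2 and 3, against 5.30, 5.17 and 5.56 in control clones 1, 2 and 3. Every knockdown clone lay above every control clone, and control clone 3 came closest to the knockdown clones. The log2 fold change was 0.40 (SE 0.11, 95% interval 0.14 to 0.67), or 1.32-fold, with an unadjusted p of 0.00873 and an adjusted p of 0.359 in limma.

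HOXC9, its neighbour and a determinant of thoracic motor neurons in mouse, had 5.45, 5.77 and 5.87 in the knockdown clones, against 5.28, 5.51 and 5.46 in the control clones. Clones 2 and 3 of the knockdown group were above all controls, and clone 1 lay among them. Its log2 fold change was 0.28 (SE 0.13, adjusted p = 0.554 in limma), and 0.40 without knockdown clone 1. HOXC11, which belongs to the paralog group that shapes the limb and kidney in mouse, showed the other arrangement, with 4.70, 4.46 and 4.37 in the knockdown clones, against 4.24, 4.30 and 4.38 in the control clones. Here knockdown clone 1 was highest and clone 3 lay just under control clone 3. Its signal was dim, and its log2 fold change of 0.20 was 0.11 without knockdown clone 1.

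HOXC10 and HOXC13 showed no difference beyond the spread. HOXC10, a gene of the lumbar and hindlimb region in mouse, was at 5.13, 5.20 and 5.39 in the knockdown clones, against 5.10, 5.10 and 5.50 in the control clones, where clone 3 set the highest value. HOXC13, needed for normal hair and nails, was at 6.13, 5.90 and 6.11 in the knockdown clones, against 5.93, 5.96 and 6.14 in the control clones. Their log2 fold changes were 0.01 and 0.04, with 95% intervals of -0.31 to 0.32 and -0.19 to 0.27. The mean of the knockdown clones was the higher one in all 5 measured HOXC genes, and their median log2 fold change was 0.20, or 0.11 once knockdown clone 1 was left out.

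HOXA2 was the only measured gene of the HOXA cluster. It specifies the second pharyngeal arch and part of the hindbrain in mouse. Its log2 values were 4.21, 4.26 and 4.37 in the knockdown clones, against 3.86, 3.81 and 4.11 in the control clones. The groups did not overlap, though knockdown clone 1 and control clone 3 were close, and all 6 values were dim. The log2 fold change was 0.35 (SE 0.10, 95% interval 0.12 to 0.59), with an unadjusted p of 0.00935 and an adjusted p of 0.363 in limma. In all 6 fits that left out 1 array it stayed between 0.30 and 0.44.

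Because MBD2 reads methylated CpG, the promoter letters of the HOX genes are shown for CpG content. RefSeq promoter windows (GRCh38.p14, 250 bases before to 50 after the transcription start) were at hand for 9 of the 23 genes, matched by gene identifier. The count of CG, which reads the same on both strands, was 4 to 36 per 300 bases in these 9, with a median of 23, against a median of 14 over 35116 windows of the table, of which 96.0% hold at least 1 CG. The window of HOXA2 (chr7:27102634-27102933, minus strand) holds 11, more than 45.3% of all windows. It is set beside the windows with the fewest and the most among the 9, those of HOXD4 (chr2:176151300-176151599, plus strand, 4 CG) and HOXD1 (chr2:176188418-176188717, plus strand, 36 CG). Capitals mark each CG, 5′ to 3′ on the gene's strand.
HOXA2: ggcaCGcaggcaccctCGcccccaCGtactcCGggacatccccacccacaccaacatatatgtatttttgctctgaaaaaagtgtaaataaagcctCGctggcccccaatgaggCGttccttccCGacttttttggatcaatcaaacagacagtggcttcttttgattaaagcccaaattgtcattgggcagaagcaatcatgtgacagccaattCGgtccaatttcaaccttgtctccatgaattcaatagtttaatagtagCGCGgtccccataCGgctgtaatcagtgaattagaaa
HOXD4: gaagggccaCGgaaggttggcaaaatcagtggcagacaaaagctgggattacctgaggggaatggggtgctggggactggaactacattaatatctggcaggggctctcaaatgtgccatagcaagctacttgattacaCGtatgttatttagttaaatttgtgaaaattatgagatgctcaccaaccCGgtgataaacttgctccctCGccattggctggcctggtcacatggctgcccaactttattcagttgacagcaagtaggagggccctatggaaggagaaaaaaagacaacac
HOXD1: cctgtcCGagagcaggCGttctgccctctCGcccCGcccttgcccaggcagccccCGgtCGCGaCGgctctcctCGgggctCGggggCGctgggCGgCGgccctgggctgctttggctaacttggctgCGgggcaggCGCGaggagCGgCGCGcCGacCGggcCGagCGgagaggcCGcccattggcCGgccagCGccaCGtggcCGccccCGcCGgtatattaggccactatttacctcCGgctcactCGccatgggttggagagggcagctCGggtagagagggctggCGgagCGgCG
HOXD4 and HOXD1, at these ends of CpG content, had log2 fold changes of 0.08 and -0.06, neither beyond the spread between clones. HOXD8, with 34 CG, had 0.12, and HOXB1, with 11 CG as in HOXA2, had 0.10. Methylation of these letters was not measured here, and the count of CG is a description of the sequence alone.

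The HOXB cluster held the pair of HOX genes with the most negative log2 fold changes, HOXB13 and HOXB9. HOXB9, which helps pattern the rib cage in mouse, had log2 values of 6.10, 6.19 and 6.23 in the knockdown clones, against 6.44, 6.44 and 6.35 in the control clones. Every knockdown clone lay below every control clone. Its log2 fold change was -0.23 (SE 0.08, 95% interval -0.42 to -0.05), or 0.85 times the control level, with an unadjusted p of 0.0196 and an adjusted p of 0.422 in limma. The unadjusted p was 0.0574 without control clone 1 and 0.065 without control clone 2.

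HOXB13, the prostate lineage factor, had 8.47, 8.34 and 8.03 in the knockdown clones, against 8.44, 8.64 and 8.55 in the control clones. Knockdown clone 3 was lowest and knockdown clone 1 lay inside the control range, so the groups overlapped. The log2 fold change was -0.26 (SE 0.13, 95% interval -0.56 to 0.03, unadjusted p = 0.0751, adjusted p = 0.581 in limma), and leaving out knockdown clone 3 gave -0.14, leaving out clone 1 -0.36 (adjusted p = 0.203 in limma). PRAC1, a gene for a small nuclear protein of prostate and distal gut that lies between HOXB9 and HOXB13, had 7.10, 7.67 and 7.40 in the knockdown clones, against 8.20, 7.60 and 7.65 in the control clones. Control clone 1 stood apart from the other controls, which overlapped the knockdown clones, and the log2 fold change was -0.43 (SE 0.20, adjusted p = 0.564 in limma).

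The remaining 7 HOXB genes, numbers 1 to 7, lay close to 0, with log2 fold changes between -0.04 for HOXB7 and 0.11 for HOXB6. HOXB7 was at 6.02, 6.21 and 6.25 in the knockdown clones, against 6.02, 6.14 and 6.44 in the control clones, and was among the 3 HOX genes that varied most between controls (SD 0.22). HOXB1, which sets the identity of the hindbrain segment of the facial nerve, was at 5.22, 4.83 and 4.84 in the knockdown clones, against 4.95, 4.80 and 4.86 in the control clones. Only its knockdown clone 1 left the control range. HOXB4, a regulator of blood stem cells, had a log2 fold change of 0.02, and HOXB2, HOXB3 and HOXB5 had 0.07, 0.07 and 0.06. HOXB3 overlaps HOXB4 in the RefSeq table, as HOXD3 does HOXD4, so these pairs may not be fully told apart by their features. HOXB as a whole had 6 of 9 genes with higher means and a median of 0.06, or -0.02 without knockdown clone 1 and -0.02 without control clone 2.

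**Figure D2:**
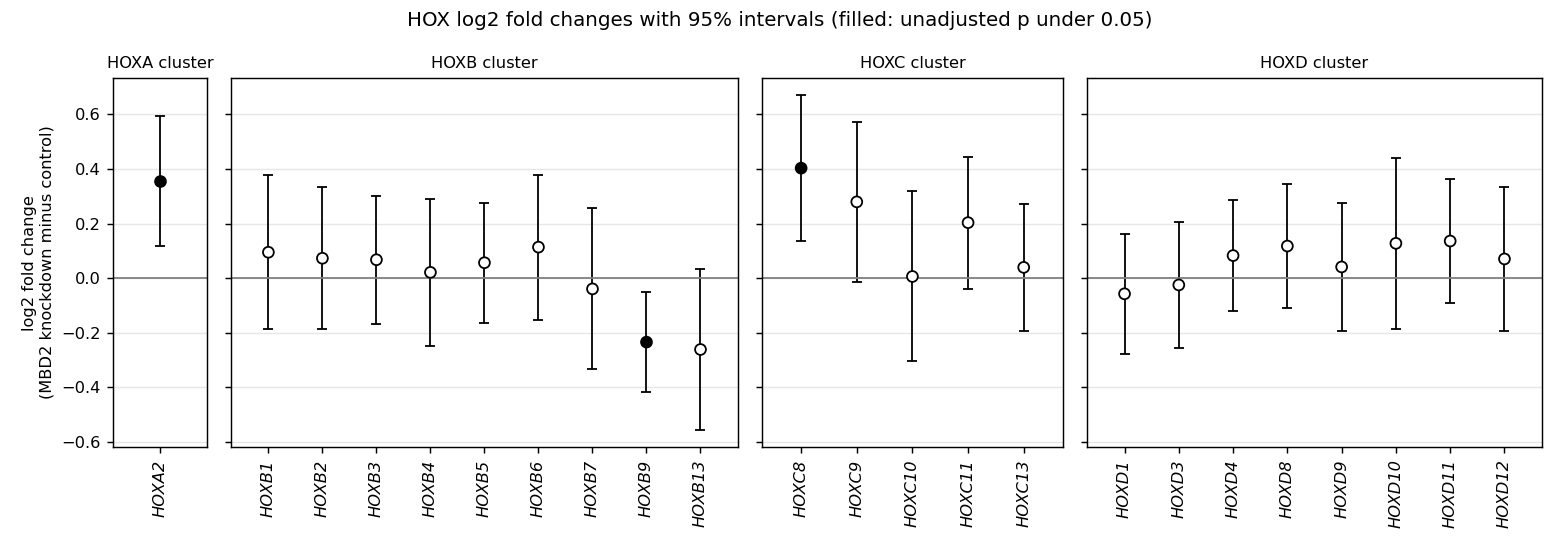
Log2 fold change (MBD2 knockdown minus scrambled control) of each measured HOX gene with its 95% interval from limma, by cluster and paralog number; filled points have an unadjusted p under 0.05. HOXA2 and HOXC8 lie above 0 and HOXB9 below it, and the intervals of the other 20 genes include 0.

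The HOXD cluster had 6 of 8 genes with higher means in the knockdown clones. Its 8 measured genes had log2 fold changes between -0.06 for HOXD1 and 0.14 for HOXD11, with a median of 0.08, which was 0.01 without knockdown clone 1. HOXD1, linked to pain-sensing neurons in mouse, was at 6.18, 5.96 and 6.02 in the knockdown clones, against 6.21, 6.12 and 6.01 in the control clones, and HOXD3, which helps shape the first neck vertebrae in mouse, was at 3.93, 3.71 and 3.90 in the knockdown clones, against 4.00, 3.85 and 3.76 in the control clones. Both overlapped between the groups. HOXD11, which acts with HOXA11 in forelimb and kidney development in mouse, was at 4.55, 4.28 and 4.29 in the knockdown clones, against 4.21, 4.28 and 4.22 in the control clones. Its groups did not overlap, but knockdown clone 2 and control clone 2 were level to 2 decimals, and the log2 fold change of 0.14 was 0.05 without knockdown clone 1. HOXD10, a gene of lumbar motor neurons and hindlimb in mouse, was at 4.57, 4.15 and 4.25 in the knockdown clones, against 4.36, 4.18 and 4.04 in the control clones. It too was highest in knockdown clone 1. HOXD4, HOXD8, HOXD9 and HOXD12 had 0.08, 0.12, 0.04 and 0.07, and 5 of the 8 genes were dim.

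In all, the groups did not overlap in 3 genes on the higher side, HOXC8, HOXA2 and HOXD11, where 6.57% of all genes did not, and in 1 gene on the lower side, HOXB9, where 8.87% of all genes did not. That is 4 of 23 HOX genes against 15.4% of all genes.

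With the 4 clusters pooled, the medians by position lay close to each other. The 6 anterior genes, paralog groups 1 to 3, had a median log2 fold change of 0.07 and a range of -0.06 to 0.35. The 7 central genes, groups 4 to 8, had a median of 0.08 and a range of -0.04 to 0.40. For the 10 posterior genes, groups 9 to 13, the median was 0.06 and the range -0.26 to 0.28. Single clusters differed in order. In HOXB, genes 1 to 6 had 0.02 to 0.11, and HOXB7, HOXB9 and HOXB13 had -0.04, -0.23 and -0.26. In HOXD, HOXD1 and HOXD3 had -0.06 and -0.02, and the genes of higher number had 0.04 to 0.14. In HOXC, HOXC8 and HOXC9 were highest. Order within a cluster was not tested. Paralogs of the same number differed in sign in groups 1, 3, 9 and 13. HOXB1 had 0.10 and HOXD1 -0.06, and HOXB3 had 0.07 and HOXD3 -0.02. In group 9 HOXB9 had -0.23, HOXC9 0.28 and HOXD9 0.04, and in group 13 HOXB13 had -0.26 and HOXC13 0.04. Paralogs HOXC8 and HOXD8 had 0.40 and 0.12, and HOXA2 and HOXB2 had 0.35 and 0.07. The differences between paralogs were not tested.

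In 18 of 23 HOX genes (78.3%) the knockdown mean was the higher one, against 48.7% of all genes. The median log2 fold change was 0.07 for the HOX genes and -0.004 for all genes. This lean is set below against single arrays and against genes of like signal, and its cause was not tested. Relative to the control mean, the median over the 23 genes was 0.16 in knockdown clone 1, -0.004 in clone 2 and 0.05 in clone 3, while control clones 1, 2 and 3 had -0.03, -0.03 and 0.07. Knockdown clone 1 was above the control mean in 18 of 23 genes and in 9 of the 9 dim ones, clone 2 in 11 of 23 and clone 3 in 15 of 23. Of all 16704 genes, 9329 were above it in knockdown clone 1, 7446 in clone 2 and 7294 in clone 3. Of all 4176 dim genes, 3112 were above it in knockdown clone 1. Among genes with means under the median of all gene means, 18 of 22 HOX genes (81.8%) had the higher mean in the knockdown clones and their median log2 fold change was 0.07, against 60.4% of all 8352 such genes and a median of 0.03. Relative to the control mean, the median of those 8352 genes was 0.11 in knockdown clone 1 and -0.01 in each of the other knockdown clones. Without knockdown clone 1 the HOX genes had 14 of 23 higher means and a median of 0.02, against 43.4% of all genes higher and -0.02.

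**Figure D3:**
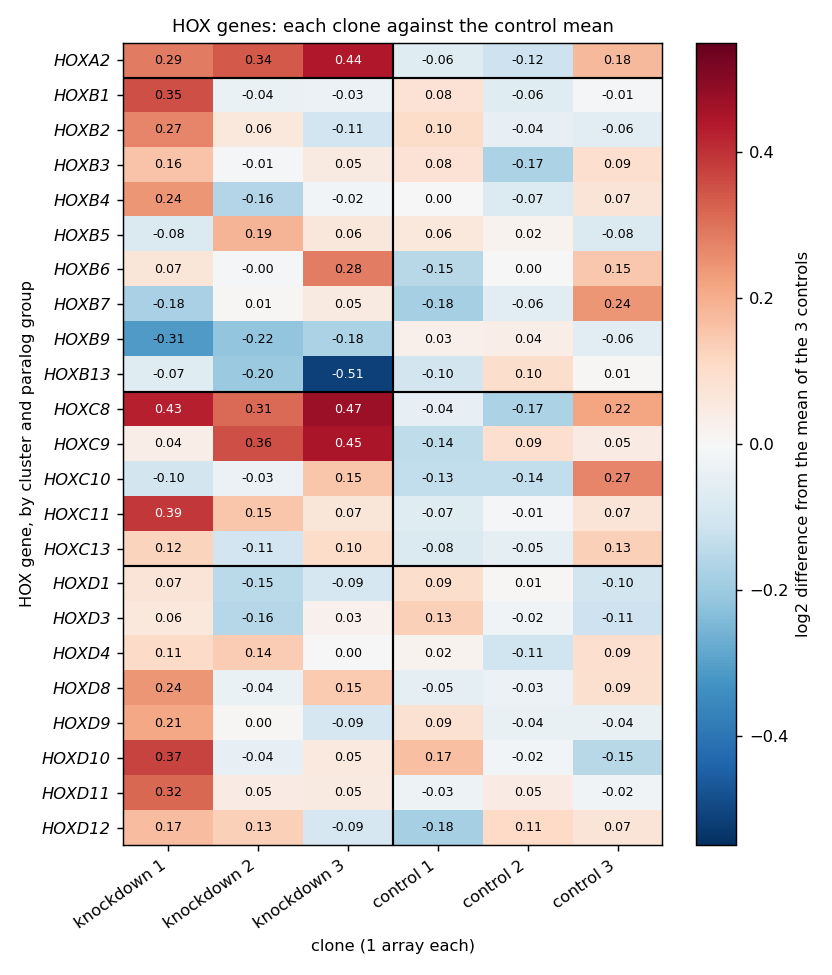
Log2 difference of each clone from the mean of the 3 control clones, for the 23 HOX genes (rows, by cluster and paralog number), with knockdown clones on the left and control clones on the right. All 3 knockdown clones are above 0 in 6 genes (HOXA2, HOXC8, HOXC9, HOXC11, HOXD4 and HOXD11) and below 0 in 2 (HOXB9 and HOXB13). Of all 16704 genes, 3102 have all 3 above 0 and 3696 have all 3 below. HOXB1, HOXB2, HOXC11, HOXD10 and HOXD11 are highest in knockdown clone 1 (0.27 to 0.39). So are HOXB3, HOXB4, HOXD8, HOXD9 and HOXD12 (0.16 to 0.24).

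The spread between clones set the limit of these comparisons. Over the 23 genes the median SD was 0.14 between knockdown clones and 0.10 between control clones, against 0.13 and 0.10 over all genes. The SD of the difference between arrays over the HOX genes was 0.15 for knockdown clones 2 and 3, and 0.21 and 0.24 for knockdown clone 1 against clones 2 and 3. It was 0.14 to 0.21 between control clones and 0.17 to 0.26 between knockdown and control clones. For knockdown clone 1 and control clone 1 it was 0.19. Over all genes knockdown clones 2 and 3 were the most alike pair of arrays (0.19, other pairs 0.22 to 0.35). An alternative fit averaged these clones as 1 replicate. HOXB13 varied most among the knockdown clones (SD 0.23), followed by HOXB1 and HOXD10 (0.22 each), and HOXC10 varied most among the control clones (0.23).

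The genes next to the clusters were compared as a local reference. Of the 40 nearest measured genes, 5 on each side of each cluster by RefSeq order, 0 had an adjusted p under 0.05. At an unadjusted p under 0.05 there was 1 of the 40, against 9.39% of all genes. It was NFE2L1, a stress-response transcription factor gene beside HOXB, with 9.37, 9.70 and 9.77 in the knockdown clones, against 9.06, 9.28 and 9.43 in the control clones. Its groups overlapped in knockdown clone 1 and its log2 fold change was 0.36 (SE 0.14, adjusted p = 0.48 in limma). The median was 0.05 for the 10 genes around HOXA, 0.01 around HOXB, 0.04 around HOXC and -0.12 around HOXD. EVX1, the homeobox gene at the posterior end of HOXA, had 0.12 (adjusted p = 0.692 in limma), and SMUG1, the nearest measured gene on the HOXC8 side of the HOXC cluster, had 0.05. ACTA2, NFE2L1 and SMUG1 were chosen for mention after their values were seen.

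**Figure D4:**
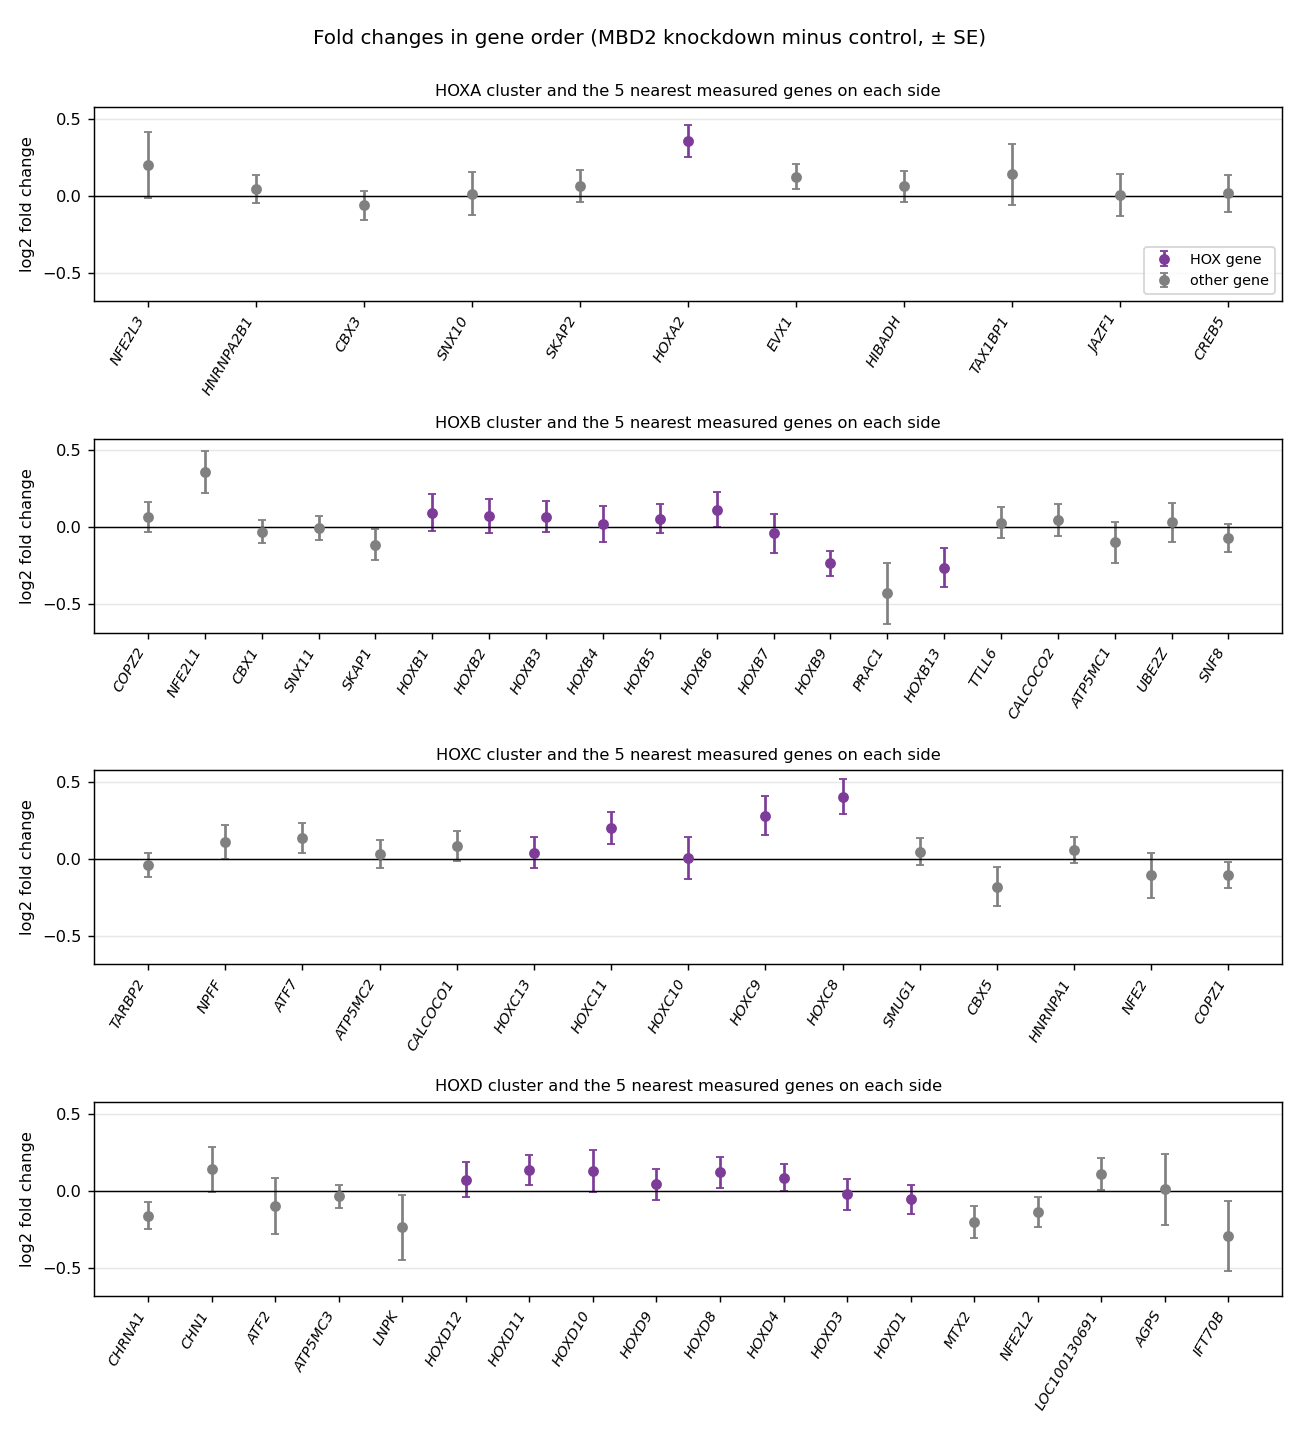
Log2 fold change (MBD2 knockdown minus scrambled control, ± SE from limma) of the measured HOX genes (purple) and their nearest measured neighbours (grey) in the order of the RefSeq table, with equal spacing. HOXB9, PRAC1 and HOXB13 lie side by side below 0, at -0.23, -0.43 and -0.26, and HOXC8 and HOXC9 side by side above it, at 0.40 and 0.28.

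No listed partner or regulator of the HOX genes passed either. Of 7 measured TALE cofactors, homeodomain proteins that bind DNA together with HOX proteins, 0 passed the threshold, with a median log2 fold change of -0.005. MEIS3 was at 6.26, 5.97 and 5.92 in the knockdown clones, against 5.59, 5.62 and 5.80 in the control clones, a log2 fold change of 0.38 (adjusted p = 0.393 in limma). MEIS1, the partner of HOXB13 and HOXA9 in prostate and blood cells, was at 5.20, 4.94 and 4.97 in the knockdown clones, against 5.23, 5.34 and 5.25 in the control clones, a log2 fold change of -0.24 (adjusted p = 0.494 in limma). The groups overlapped in neither gene, and the 2 paralogs lay on opposite sides. Of the 7 TALE genes 2 did not overlap on the higher side, MEIS3 among them, where 6.57% of all genes did not. On the lower side it was 1, MEIS1, where 8.87% of all genes did not.

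Of 13 measured trithorax and MLL complex genes, which keep HOX genes active, 0 passed and the median was 0.01. WDR5, a core subunit, had -0.25, and MLLT1, of the elongation machinery tied to MLL fusions, had -0.12. Of 15 measured Polycomb genes 0 passed and the median was -0.01. EED, the subunit that reads the mark the complex lays down, had -0.22 (adjusted p = 0.476 in limma), and CBX6 had 0.20. Of 13 measured genes of retinoic acid signalling, the classical inducer of anterior HOX genes, 0 passed, with a median of 0.05. DHRS3, which lowers retinaldehyde, was at 6.75, 7.29 and 6.88 in the knockdown clones, against 6.65, 6.55 and 6.46 in the control clones, a log2 fold change of 0.42 (adjusted p = 0.433 in limma), and the receptor gene RARB had -0.23. The 10 measured ParaHox and other HOX-like homeobox genes had 0 that passed and a median of 0.06, with 0.13 for GSX2. Of 26 listed non-coding and small genes within the HOX clusters 1 was measured, PRAC1, which codes for a protein. At an unadjusted p under 0.05 these lists together held 4 of 59 genes (6.78%), MEIS3 and DHRS3 as higher and MEIS1 and EED as lower, against 9.39% of all genes.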

How the data were processed

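Cytoplasmic RNA of 6 LNCaP clones was measured on 1 Affymetrix array each, and clones were grouped by their titles. The deposited table holds log2 values that the authors made with RMA, per the submitters' processing notes, which also name oligo and limma. No tool version is stated there, and the log2 scale was taken from the range of the values. Of 19712 features 17334 have 1 gene symbol, and the brightest per gene gave 16704 genes, named through RefSeq GRCh38.p14. No further normalization or filter was applied. MBD2 knockdown was compared with scrambled control with limma 3.58.1 (lmFit, eBayes) in R 4.3.3, two-sided, with Benjamini-Hochberg adjustment over all genes. Simulated data had 200 changed genes among 16704 and, for each gene, normal noise of the same size in every array. There limma recovered 88.3% of 2-fold and 99.6% of 4-fold changes. The real arrays were less even, with array weights of 0.25 for knockdown clone 1 and 3.43 for knockdown clone 2. MBD2, at -1.28, did not pass, so these shares may not hold for the real comparison. Gene lists are described by counts and medians only. Named were the HOX genes with the smallest p in each direction (5 each), the highest means (5) and the largest SD in either group (3 each), and per list the 2 genes of smallest p. The members and lists were chosen with earlier results of these data known. 15 alternatives were tried, among them centring, quantile and cyclic loess normalization, a filter on dim genes, array weights, a replicate block and leaving out each array. The files give no depth, and 3 arrays per group limit the precision. Python 3.11.15 was used for tables and figures.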

Additional observations from a re-analysis of the deposited data

How the results depend on the processing

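No HOX gene reached an adjusted p under 0.05 under any of the 15 alternatives. HOXC8 kept its sign and an unadjusted p under 0.05 in 15 of 15 and HOXA2 in 14 of the 14 that measured it, and HOXB9 kept its sign in 15 and that p in 13. HOX genes at an unadjusted p under 0.05 numbered 5 with array weights (19.9% of all genes) and 2 to 5 when 1 array was left out (6.51% to 16% of all genes), with 5 without knockdown clone 1 (16%). HOX genes whose groups did not overlap numbered 4 to 7 when 1 array was left out, where 22.9% to 35.1% of all genes did not overlap. All genes past the adjusted threshold numbered 1 after quantile normalization, 1 after cyclic loess, 325 with array weights and 0 to 70 when 1 array was left out. At an unadjusted p under 0.05 there were 3331 with array weights and 1088 to 2671 when 1 array was left out. MBD2 passed with array weights (-1.27, adjusted p = 0.0138 in limma), and its log2 fold change was -1.44 to -1.19 when 1 array was left out; it passed without knockdown clone 1 (adjusted p = 0.0498) and without control clone 1 (0.0179). The HOX median was 0.03 after quantile normalization, 0.04 after cyclic loess and 0.02 to 0.10 when 1 array was left out. The HOXB median was -0.039 without the dimmest 30% of genes, 0.011 with array weights and -0.024 to 0.080 when 1 array was left out, and the HOXC median was 0.11 to 0.24. Neighbouring genes at an unadjusted p under 0.05 numbered 2 after quantile normalization, 2 after cyclic loess, 3 with array weights, 0 with knockdown clones 2 and 3 averaged and 0 to 3 when 1 array was left out. Members of the other lists numbered 14 with array weights, 2 with clones 2 and 3 averaged and 2 to 9 when 1 array was left out. Of 204 values of the 14 named HOX genes 16 changed sign, all in genes near 0. With array weights these were HOXB1 (-0.0013), HOXB7 (0.011) and HOXC13 (-0.045). HOXC10 had -0.027 after quantile normalization, -0.033 after cyclic loess and -0.021 with clones 2 and 3 averaged. When 1 array was left out, HOXB1 ranged from -0.034 to 0.16, HOXB7 from -0.13 to 0.082, HOXC10 from -0.068 to 0.14, HOXC13 from -0.0019 to 0.11 and HOXD3 from -0.081 to 0.041. The cause of these shifts was not tested.

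With the replicate number as a block, 4 HOX genes had an unadjusted p under 0.05, HOXC9 being added (unadjusted p = 0.0223, adjusted p = 0.453 in limma), against 9.43% of all genes in that fit. The block left 0 genes past the adjusted threshold, as without it. Deviations of same-numbered clones correlated at -0.03, -0.19 and 0.17 over genes, and those of clones with unlike numbers at -0.17 to 0.22. With 3 clones per group these values cannot settle whether the numbers pair the clones.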

Other observations

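One further feature is annotated to HOXC6 and HOXC4 together, whose transcripts share exons, and so belonged to no single gene. Its log2 values were 6.57, 6.69 and 7.10 in the knockdown clones, against 6.42, 6.65 and 6.57 in the control clones. Knockdown clone 3 stood above the rest and the groups overlapped, with a difference of the means of 0.24.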
